A study of Glycine max with 12 samples.

Results

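Messenger RNA of young soybean (Glycine max) seeds was set against that of unopened flowers. The comparison takes 2 of the 12 libraries of a series on the soybean life cycle, chosen by their labels. The first library came from whole seeds at the globular stage of the embryo, 0.8 to 1.1 mm long, and the second from floral buds that were still closed and whose anthers had not shed pollen. Both came from greenhouse plants of cultivar Williams 82, and their RNA was selected for poly(A) tails in 2 rounds. Each stage or organ has 1 library, so there is no spread between plants, no test was made, and each difference below is one between single libraries.

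A floral bud holds sepals, petals, stamens with developing pollen, and carpels that enclose the ovules. After fertilization an ovule becomes a seed. Its integuments, which are maternal tissue, form the seed coat around the embryo and the endosperm. At the globular stage the embryo is a small ball of cells, and most of the seed is seed coat and endosperm. Storage protein and oil accumulate later, in the maturing embryo. In whole seeds and whole buds, fewer cells of a type and less RNA per cell cannot be told apart.

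The gene models carry locus identifiers, and the files do not pair these with names. Of the identifiers, 0 stood in the RefSeq gene table used here (59048 genes), so no gene is named, no pathway is described, and the labelled organs could not be checked against marker genes. Chromosome numbers below are read from the digits between Glyma and g in the identifiers. Identifiers of another form give no chromosome and are left out of the chromosome shares.

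The globular library held 45.7 M (mega) counts of mapped reads and the floral bud library 32.3 M, over 66210 gene models. The 8 other libraries with counts (heart, cotyledon, early-maturation and dry seed, seedling, leaf, root and stem) held 10.3 to 38.2 M and serve as context. Heart seeds were 2 to 2.5 mm long, cotyledon seeds 3 to 3.9 mm and early-maturation seeds 6 to 7 mm. Seedlings were taken 6 days after imbibition. Levels are CPM, counts per M of library size after TMM scaling, which sets libraries to a common scale. Gene lengths were not used, so levels are compared between libraries for a gene model and not between gene models. A count of 0 allows up to 3 counts, which is 0.0602 CPM in globular seed and 0.0733 CPM in floral bud.

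Fewer gene models were read in globular seed than in floral bud, although its library was the deeper one. At 1 CPM or more there were 31134 gene models in globular seed and 34555 in floral bud, and 29592 in both. At that level 1542 were read in globular seed and not in floral bud, and 4963 in floral bud and not in globular seed. At 10 CPM or more the numbers were close, with 17852 in globular seed and 17758 in floral bud. This order turned under the 3 other scalings. Without TMM there were 18630 in globular seed and 20278 in floral bud, and with DESeq2 size factors 16989 and 17969. With TMM over these 2 libraries alone there were 19081 and 19724. At 100 CPM or more globular seed had the larger number, 1488, against 1079 in floral bud. Globular seed thus had fewer gene models at 1 CPM and more at 100 CPM than floral bud, under the 3 other scalings as well. Its 10 gene models with the most counts took 3.47% of the counts (95% exact binomial interval 3.46 to 3.47%), and those of floral bud 2.67% (2.66 to 2.67%). Intervals and floors here and below cover counting error only.

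Of the 34254 gene models with a mean of at least 1 CPM over both libraries, called measured here, 1048 were higher in globular seed and 1749 were lower. A gene model counted as different at a ratio of 4-fold or more, with any count below 3 raised to 3, and with 10 CPM or more on the higher side. These are 3.06% and 5.11% of the measured gene models, 8.17% together. A majority, 61.1%, differed less than 2-fold. Over the 33342 measured gene models that had 3 or more counts on each side, the median log2 ratio of globular seed over floral bud was 0.17.

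The split between directions depended on scaling. With TMM, 37.5% of the differing gene models were higher in globular seed. Without it, 26.8% were, with 835 higher and 2278 lower, and the median log2 ratio was -0.06. With DESeq2 size factors the split was 29.9% and the median log2 ratio 0.00. The lower gene models outnumbered the higher ones under all 3 scalings, and under TMM over these 2 libraries alone.

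**Figure D1:**
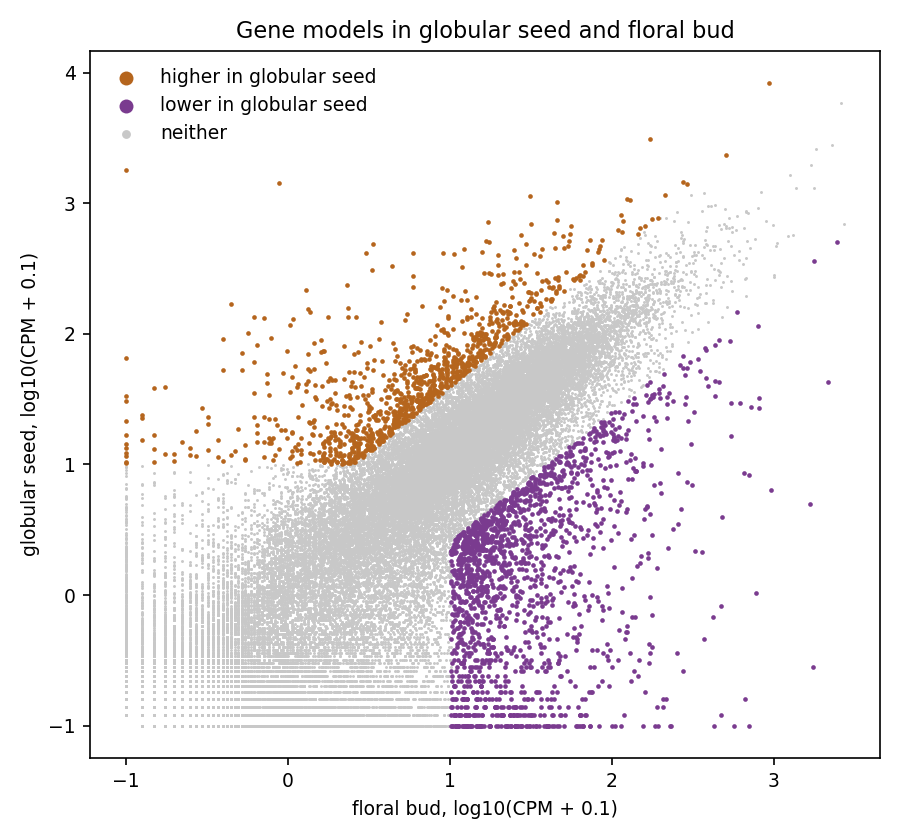
Level of each gene model in globular seed (vertical axis) and in floral bud (horizontal axis), as log10(CPM + 0.1); each point is 1 gene model with a count in either library, coloured by direction. The 1749 gene models lower in globular seed reach down to 0 counts there, and the 1048 higher ones have a median of 42.8 CPM in globular seed and 5.78 CPM in floral bud.

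Large ratios were mostly ones toward the bud. At 2-fold, 4077 gene models were higher in globular seed and 3107 lower, an order that depended on scaling: without TMM the numbers were 3072 and 4209, and with DESeq2 size factors 3098 and 3577. From 4-fold on, the lower ones were in the majority under all 4 scalings. At 8-fold the numbers were 363 higher and 1135 lower, at 32-fold 102 and 621, and at 256-fold 13 and 213. The higher gene models included 12 with 0 counts in floral bud. The lower ones included 101 with 0 counts in globular seed, where more reads were drawn. The lower gene models had a median of 1.67 CPM in globular seed and 23.2 CPM in floral bud.

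**Figure D2:**
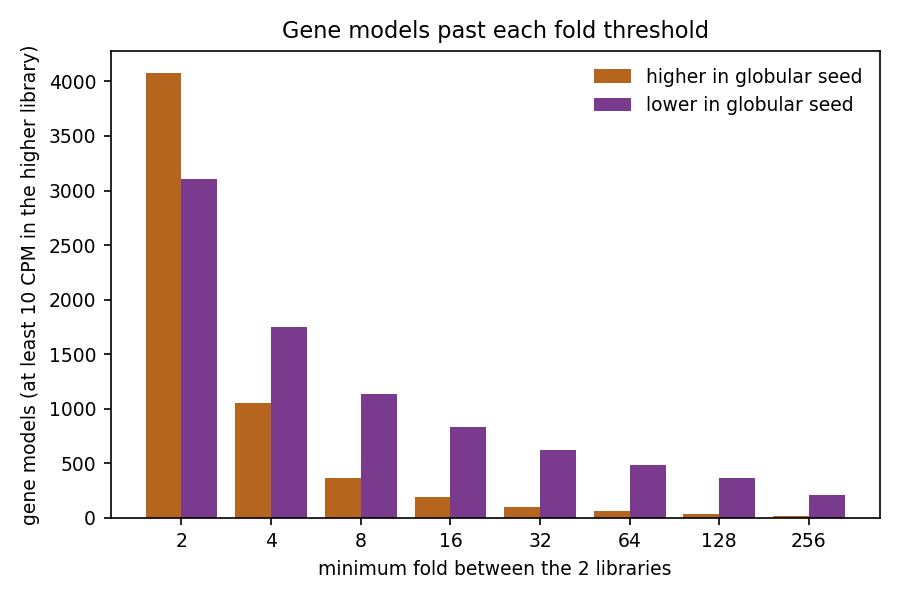
Number of gene models higher (left bar of each pair) and lower (right bar) in globular seed than in floral bud at each minimum fold, with at least 10 CPM in the higher library. Under the TMM scaling drawn here higher ones lead at 2-fold (4077 and 3107), where the order turns without TMM (3072 and 4209), and lower ones lead at every threshold drawn from 4-fold (1048 and 1749) to 256-fold (13 and 213).

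The balance also differed with mean CPM. Among 15776 gene models with a mean of 1 to 10 CPM, 1.32% were higher in globular seed and 4.26% lower. Among 17249 with a mean of 10 to 100 CPM, 4.13% were higher and 5.74% lower. Among 1214 with a mean of 100 to 1000 CPM, 10.3% were higher and 6.92% lower. In that range the shares were 8.8% and 8.1% with DESeq2 size factors, and 8.59% and 7.14% with TMM over the 2 libraries. Without TMM they were 7.23% and 8.19%. The share of higher gene models thus grew over these 3 ranges under all 4 scalings. Which direction led from 100 to 1000 CPM turned without TMM alone. In the range under 10 CPM the minimum of 10 CPM itself keeps part of the gene models from being counted. At 1000 CPM or more there were 15 gene models, 3 of them higher and 3 lower.

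In reads, the higher set took 12.1% of the counts in globular seed (12.1 to 12.1%) and 1.82% in floral bud (1.81 to 1.82%). The lower set took 0.891% in globular seed (0.888 to 0.893%) and 12.4% in floral bud (12.4 to 12.4%). By the rule that chose the sets, each takes a larger share in the library where it is higher. The intervals do not cover the choice of the sets from these same counts. With the sets chosen without TMM, the higher set took 10.0% of the counts in globular seed and the lower set 14.5% of those in floral bud.

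Differing gene models were spread over all 20 chromosomes. The share of measured gene models that were higher in globular seed ranged between 1.97% on chromosome 18 and 3.83% on chromosome 14. The share that were lower ranged between 4.12% on chromosome 5 and 6.57% on chromosome 15. Some stood next to another of the same direction in the order of the files, and the number for random placement was not computed. Of the higher ones, 66 stood in 32 runs of 2 or more, and the longest run held 3, on chromosome 15. Of the lower ones, 169 stood in 80 runs, and the longest held 4, on chromosome 4. Whether reads that match several copies were counted is not stated, so neighbouring near-identical copies may share reads.

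The higher set was then followed through the 10 libraries with counts. By the rule that chose it, it is high in globular seed and low in floral bud. The other 8 libraries enter that rule only through the TMM factors, but their levels are correlated with those of globular seed. Its median level was 42.8 CPM in globular, 31.2 in heart, 26.2 in cotyledon and 15.2 in early-maturation seed, and 0.551 in dry seed. The higher set thus stayed high in the next seed stages, which are near globular seed over all gene models too. Pearson r was 0.945 with heart, 0.918 with cotyledon and 0.859 with early-maturation seed. Medians over all measured gene models were not computed. Its median was 6.83 CPM in seedling, 5.27 in leaf, 8.67 in root and 7.12 in stem, near the 5.78 CPM of floral bud.

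The library with the highest level was globular seed for 438 of the 1048 (41.8%), heart seed for 205, cotyledon seed for 59, early-maturation seed for 46 and dry seed for 34. The rule allows no peak in floral bud for this set, and peaks over all measured gene models were not counted. The 5 seed libraries together held the peak of 782. The remaining 266 peaked in a vegetative library: 121 in root, 79 in stem, 57 in leaf and 9 in seedling. The higher set therefore included gene models with more transcript in root, stem, leaf or seedling than in any counted seed stage.

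Few of the higher set were limited to young seed, and the shares below were not computed over all measured gene models. In 722 of the 1048 at least 1 of the 4 vegetative libraries reached 10 CPM, and in 106 all 4 were under 1 CPM. In 53 all 5 non-seed libraries were under 1 CPM. Of the 438 that peaked in globular seed, 55 were at least 4 times as high there as in heart seed. Of the 1048, 21 were at least 4 times as high in globular seed as in each of the other 9 libraries, and 1 was under 1 CPM in all 9.

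**Figure D3:**
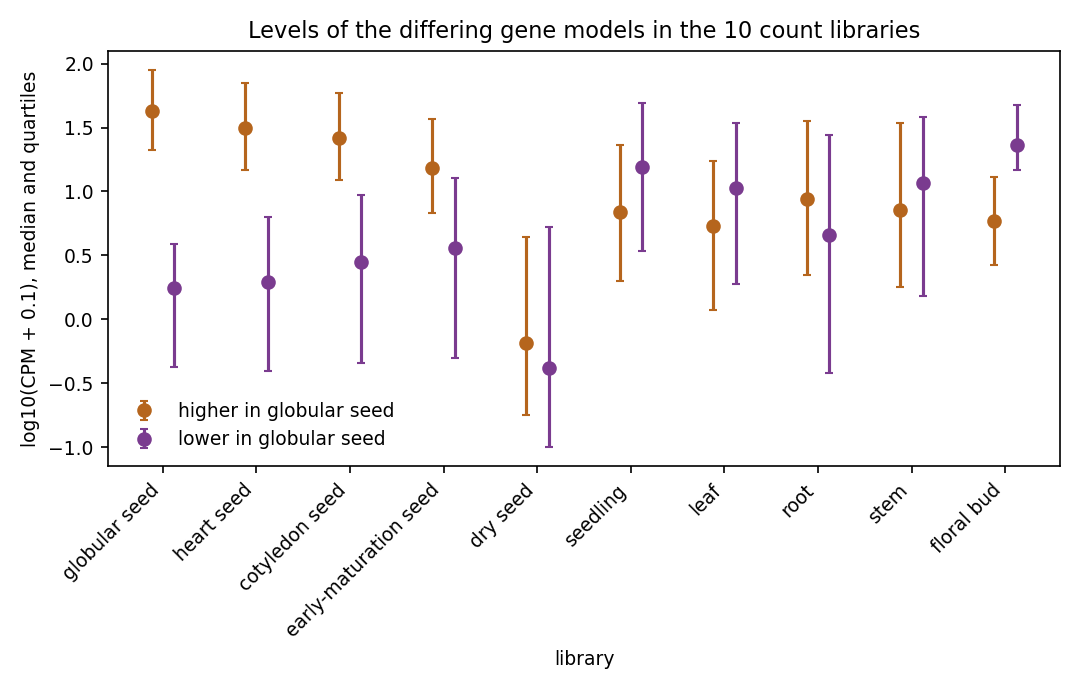
Median level and quartiles, as log10(CPM + 0.1), of the 1048 gene models higher and the 1749 lower in globular seed than in floral bud, in each of the 10 libraries with counts. The higher set declines from a median of 42.8 CPM in globular to 15.2 CPM in early-maturation seed, and the lower set is at 1.67 to 3.49 CPM over the same stages and at 15.6 CPM in seedling.

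The lower set had medians of 1.67 CPM in globular, 1.84 in heart, 2.72 in cotyledon and 3.49 in early-maturation seed, and 0.315 in dry seed. Outside the seed its medians were 15.6 CPM in seedling, 10.5 in leaf, 4.45 in root, 11.6 in stem and 23.2 in floral bud. The lower set was thus low in the developing seeds counted, which are near globular seed over all gene models too. It was read in shoot organs as well as in flowers. Medians over all measured gene models were not computed.

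Floral bud had the highest level for 653 of the 1749 (37.3%). Leaf followed with 281, stem with 260, seedling with 197 and root with 159, which makes 897 in vegetative libraries. The 5 seed libraries held the peak of 199, of which 139 were in dry seed. In 1312 of the 1749 at least 1 vegetative library reached 10 CPM, and in 352 all 5 seed libraries were under 1 CPM. The rule allows no peak in globular seed for this set, and these shares were not computed over all measured gene models.

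A part of the lower set was read in floral bud and hardly elsewhere in this series. In 286 the level in floral bud was at least 4 times that in each of the other 9 libraries. In 120 all 9 others were under 1 CPM, with 10.1 to 473 CPM and a median of 25.2 CPM in floral bud. The lower end of that range is set by the minimum of 10 CPM. By the rule, any gene model at that minimum in floral bud and under 1 CPM in the 9 others is in the lower set. The 120 are thus all such gene models, and shares over all measured gene models were not computed. The 9 libraries other than globular seed include later stages of the same organ, which floral bud does not have here, so these numbers are not set against those of the higher set.

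**Figure D4:**
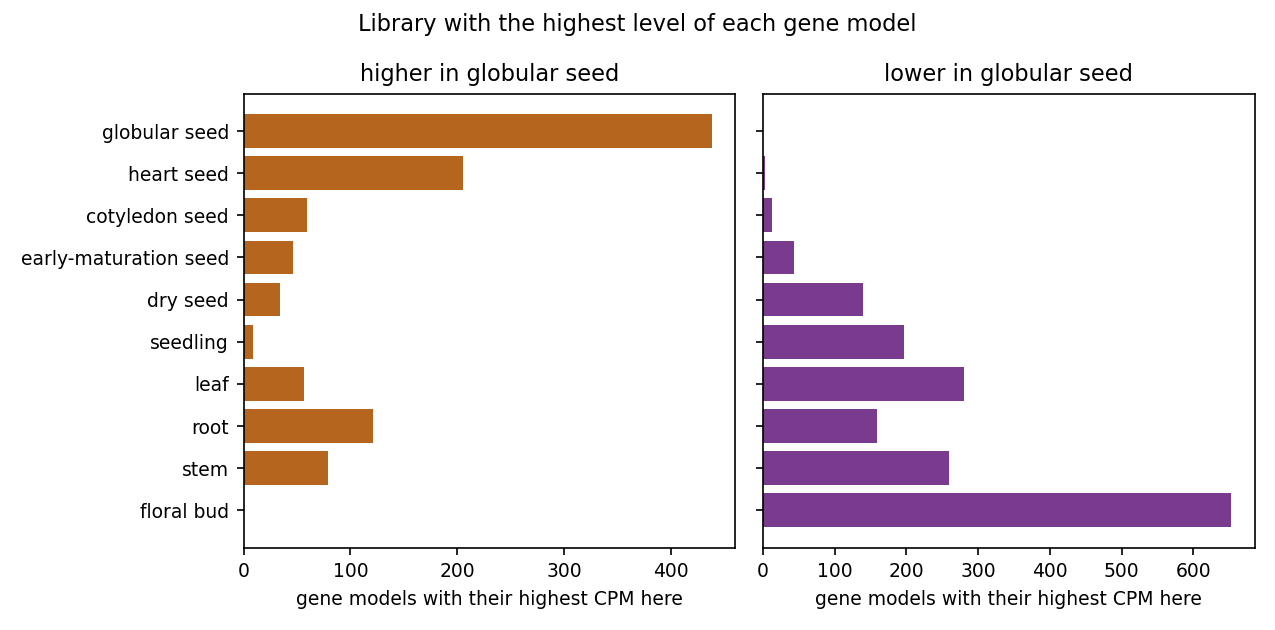
Number of gene models higher in globular seed (left) and lower in globular seed (right) that have their highest CPM in each of the 10 libraries with counts. Globular seed (438) and heart seed (205) lead on the left, and floral bud (653), leaf (281) and stem (260) on the right. The rule that chose the sets allows no peak in floral bud on the left and none in globular seed on the right.

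The 2 gene models with the largest ratios in each direction had unlike courses through the seed. Glyma07g28940 (chromosome 7) had 1798 CPM in globular seed and 0 counts in floral bud, and was at least 24518-fold higher in globular seed, computed against 3 counts in floral bud; the exact 95% counting interval of the ratio starts at 19939. Its level was 11683 CPM in heart, 13183 in cotyledon and 4708 in early-maturation seed, 0 counts in dry seed, and at most 0.189 CPM in seedling, leaf, root and stem. This gene model was thus read in developing seeds at every counted stage, with globular seed the lowest of the 4.

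Glyma04g42770 (chromosome 4) had 1438 CPM in globular seed and 0.782 CPM, from 32 counts, in floral bud. The ratio was 1838, with a 95% exact counting interval of 1302 to 2687. It had 205 CPM in heart, 17.9 in cotyledon and 0.850 in early-maturation seed, 0 counts in dry seed, leaf, root and stem, and 0.0515 CPM in seedling. It was thus highest in the youngest seed and lower at each later counted stage.

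Glyma04g28550 (chromosome 4) had 0 counts in globular seed and 708 CPM, from 28951 counts, in floral bud. It was at least 11758-fold lower in globular seed, computed against 3 counts there; the exact 95% counting interval starts at 9562. It had 0 counts in all 5 seed libraries and in leaf, 0.722 CPM in seedling, 0.984 in root and 1.51 in stem. Of the 29002 counts it had in the 10 libraries, nearly all were thus in floral bud.

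Glyma06g45110 (chromosome 6) had 3 counts in globular seed and 661 CPM, from 27019 counts, in floral bud. It was 10973 times lower in globular seed (3755 to 53215). In other organs it had 13.7 CPM in early-maturation seed, 3.20 in stem, 2.63 in seedling and 2.61 in cotyledon seed.

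A small share of the globular counts moved with the early-maturation library. Over 29 gene models above 200 CPM at early maturation and at or under 0.5 CPM in heart seed, before TMM, the median level was 7.13 parts in 10000 of the early-maturation level in globular seed (quartiles 6.46 and 8.34) and 0.444 parts in floral bud. Taking this share off the globular counts left 1048 higher and 1750 lower gene models. In 0 of the 1048 did the share account for 50% or more of the globular counts. The share is too small to move many calls at 4-fold and 10 CPM, so this does not test them. For Glyma07g28940 taking off the share left 89479 of 89621 counts.

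Globular seed was compared by the same rule with each other library with counts. Past the rule were 2.23% of the measured gene models against heart seed, 3.63% against cotyledon seed, 6.88% against early-maturation seed and 32.4% against dry seed. Against the non-seed libraries the shares were 8.17% for floral bud, 13.3% for leaf, 16.7% for root, 17.0% for stem and 17.3% for seedling. Of the 5 non-seed libraries, floral bud thus had the smallest share. All these comparisons share the globular library, and none has a replicate.

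**Figure D5:**
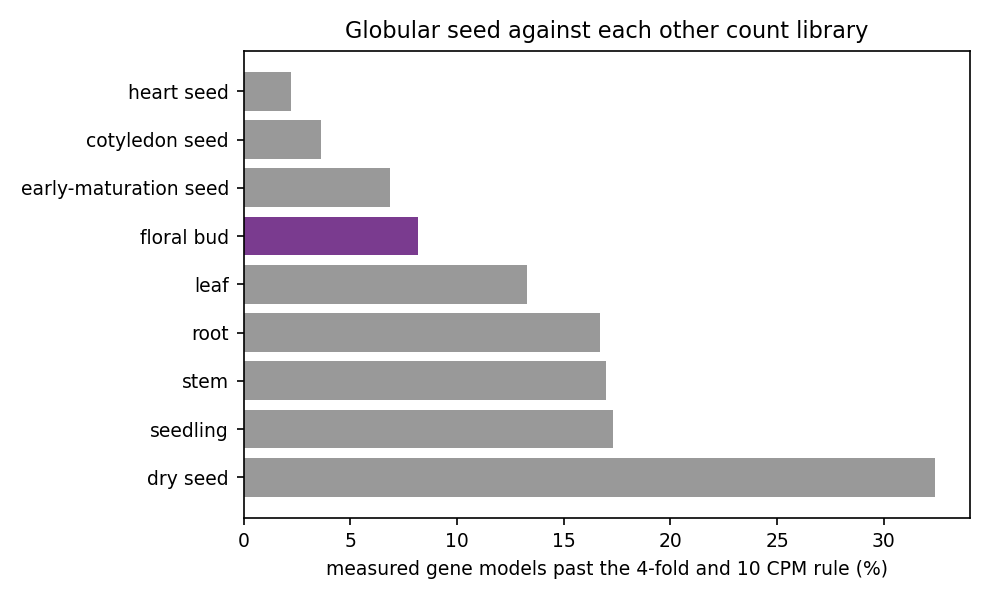
Percent of measured gene models past the 4-fold and 10 CPM rule between globular seed and each other library with counts, ordered by size, with floral bud coloured. Floral bud, at 8.17%, lies between early-maturation seed (6.88%) and leaf (13.3%).

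The levels gave the same order for floral bud. Across 42251 gene models with at least 1 CPM in any of the 10 libraries, log2(CPM + 1) in globular seed had a Pearson r of 0.821 with floral bud. It was 0.945 with heart, 0.918 with cotyledon, 0.859 with early-maturation and 0.557 with dry seed. With the other organs it was 0.783 for leaf, 0.700 for stem, 0.687 for seedling and 0.670 for root. These values run across gene models, which are not independent replicates, and are a description.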

How the data were processed

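Poly(A) RNA was read as single-end reads on an Illumina Genome Analyzer IIx, per the labels' protocols. The authors deposited raw counts of mapped reads per gene model for 10 libraries. Bowtie is named in the submitters' processing notes. Its version, the genome build, the annotation and the treatment of reads with several matches are not stated in the labels or file headers. The mid- and late-maturation libraries hold another unit and were left out. TMM factors over 10 libraries came from edgeR 4.0.16 (R 4.3.3). Ratios of counts carry exact conditional binomial 95% intervals (Clopper-Pearson), for counting error only, as amplified reads are not independent molecules. The calling step was tested on simulated counts with known folds. The simulation held counting error only and no variation between plants, so it does not test the calls made here. Alternatives were plain CPM, DESeq2 1.42.0 size factors, TMM over the 2 libraries, and other thresholds, levels and floors. The planned gene lists rested on published names of loci that no table used here pairs with the identifiers, so they were dropped after their values had been seen. The rule for single gene models was then the 2 largest ratios in each direction. The comparison and its rules were chosen with earlier results of these data known, and thresholds from 16-fold up, chromosomes, neighbours and scalings combined with thresholds were added after values were seen. Python 3.11.15, numpy 2.4.6, pandas 2.3.3, scipy 1.17.1 and matplotlib 3.10.9 were used.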

Additional observations from a re-analysis of the deposited data

How the results depend on the processing

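The numbers of higher and lower gene models moved most with the thresholds. They were 4077 and 3107 at 2-fold, 363 and 1135 at 8-fold, 2441 and 7503 with no minimum level, and 459 and 409 with a minimum of 50 CPM, so at 2-fold and at 50 CPM the higher ones were in the majority with TMM over 10 libraries. Combined with other scalings, chosen after seeing the data, that majority did not hold throughout: at 2-fold the numbers were 3072 and 4209 without TMM, 3098 and 3577 with DESeq2 size factors, and 3875 and 3634 with TMM over the 2 libraries, and at 50 CPM 399 and 583, 359 and 454, and 488 and 513. At 4-fold and 10 CPM, the other scalings and removal of the early-maturation share kept both numbers within 1.5 times. That share is too small to move these numbers far. With DESeq2 size factors the numbers were 826 and 1937, and with TMM over the 2 libraries 1028 and 2035. A floor of 10 counts left 1048 and 1749, but it could not change them. A 4-fold drop from 10 CPM still leaves far more than 10 counts in both libraries. The 4 single gene models kept their direction under the 3 other scalings, the floor of 10 counts and removal of the early-maturation share. Their ratios are too large for these settings to turn, so this does not test them. The log2 ratios of the 3 with at most 3 counts in a library were nearer 0 with the floor of 10 counts, by its construction. Other scalings and thresholds for gene lists were not run, since the lists were dropped. No paired analysis was possible because each group held 1 library. Variation between plants is unknown.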
